A study of Homo sapiens with 14 samples.

Results

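The 10 genes that encode heat shock proteins and chaperones were followed through long-term culture (LTC) of colorectal cancer cells. They were HSPA1A, HSPA1B, DNAJB1, HSPH1, HSPB1, HSP90AA1, HSPA8, HSPA5, HSPD1 and HSPE1. They were picked by gene symbol, with earlier results of these data known, and the rule itself used no measured value. All 10 were found among the 36601 genes of the single-cell matrices and among the 60624 genes of the bulk tables, and all 10 passed the filter on low counts in every comparison.

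Chaperones bind unfolded proteins and help them to fold, to refold after stress or to be passed on for degradation. HSP70 proteins hold short stretches of an unfolded chain in a cycle of ATP binding that is started by J-domain partners and ended by nucleotide exchange factors, and HSP90 takes over clients such as kinases and steroid receptors. The cytosolic, endoplasmic reticulum (ER) and mitochondrial compartments have chaperones of their own, and heat shock factor HSF1 switches on many of the cytosolic genes after stress.

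SW620 is an established human line from a lymph node metastasis of a colorectal cancer, and SW480 is a line from the primary tumor of the same patient. The single-cell part held 8 libraries, 1 for each of SW620 and SW620-TET2CD on days 6, 9, 12 and 15 of culture without passage. SW620-TET2CD cells overexpressed the catalytic domain of TET2, an enzyme of DNA demethylation, and the SW620 cells beside them carried the empty FLAG vector according to the study. The bulk part held 6 libraries: SW480 on day 6, SW620 on day 6, and SW620 and SW620-TET2CD on day 15, each of the last 2 split into cells inside and outside the colonies. The split used a mild detachment step and a strainer, and no label says that the TET2CD line was 1 clone. No library had a replicate of the same line, day and place, so the spread behind each p-value comes from other days, lines or places.

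The single-cell matrices listed 5790 to 10713 barcodes per library. With 200 to 4500 genes, 1000 to 20000 unique molecular identifiers (UMIs) and at most 10% mitochondrial UMIs required, 3894 to 8154 cells per library were kept, which held 48186195 to 74185723 UMIs. Counts were summed over the kept cells and given as CPM, the UMIs of a gene in 1e6 UMIs. Of the kept barcode sequences, 297 occurred in more than 1 library, with at most 23 shared by any pair. The bulk libraries held 16470176 to 25840563 estimated counts. TET2 was at 2.11 to 3.90 CPM in the SW620 libraries and at 40.2 to 107 CPM in the SW620-TET2CD libraries, so the transgene labels held in every single-cell library. Its level in SW620-TET2CD was not steady, at 107, 59.5, 40.2 and 41.6 CPM on days 6, 9, 12 and 15. In bulk SW620-TET2CD of day 15 it was at 38.1 TPM inside and 124 TPM outside colonies, against 1.15 to 2.93 TPM in the SW620 and SW480 libraries. Of the colon epithelial markers, EPCAM, KRT8, KRT18 and VIL1 were abundant, CDX2 was at 8.99 to 20.4 CPM and CDX1 was at or near 0. Of the markers of other cells, PTPRC, CD3E, COL1A2 and CDH5 did not pass 0.0623 CPM. COL1A1 was at 1.15 to 3.35 CPM and PECAM1 at 0.165 to 1.27 CPM, and PECAM1 reached 5.06 TPM in bulk SW620-TET2CD outside cells.

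HSPA1A (ENSG00000204389, chr6:31815543-31817946, plus strand) and HSPA1B (ENSG00000204388, chr6:31827738-31830254, plus strand) are neighboring, nearly identical copies of the stress-inducible HSP70 gene, and reads that fit both cannot be assigned with certainty. HSPA8 (ENSG00000109971, chr11:123057489-123063230, minus strand) encodes the constitutive HSP70, DNAJB1 (ENSG00000132002, chr19:14514769-14560391, minus strand) encodes an HSP40 partner with a J domain, and HSPH1 (ENSG00000120694, chr13:31134973-31162388, minus strand) encodes the HSP110 exchange factor. HSP90AA1 (ENSG00000080824, chr14:102080742-102139699, minus strand) encodes the inducible cytosolic HSP90, and HSPB1 (ENSG00000106211, chr7:76302673-76304295, plus strand) encodes the small heat shock protein HSP27. HSPA5 (ENSG00000044574, chr9:125234853-125241382, minus strand) encodes the ER HSP70 known as BiP. HSPD1 (ENSG00000144381, chr2:197486584-197516737, minus strand) and HSPE1 (ENSG00000115541, chr2:197500140-197503449, plus strand) encode the mitochondrial chaperonin HSP60 and its lid HSP10, and lie head to head. All positions are those of GENCODE v44 on GRCh38.

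The promoter windows of the members differed in the elements they held. The windows shown are the 250 bases before a transcription start in RefSeq (GRCh38.p14), read 5′ to 3′ on the gene's own strand, and 14 such windows matched the 10 members. Capitals mark heat shock elements, here TTC and GAA units that face each other with any 2 bases between them (TTCNNGAA or GAANNTTC), and, in HSPA5, the ER stress element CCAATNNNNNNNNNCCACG. Both strands were searched.
HSPA1A, chr6:31815293-31815542, plus strand: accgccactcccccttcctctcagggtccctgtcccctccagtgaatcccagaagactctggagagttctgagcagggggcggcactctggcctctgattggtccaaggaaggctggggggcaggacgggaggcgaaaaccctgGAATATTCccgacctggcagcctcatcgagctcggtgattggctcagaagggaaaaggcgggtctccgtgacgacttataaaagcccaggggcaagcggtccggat
HSPA1B, chr6:31827488-31827737, plus strand: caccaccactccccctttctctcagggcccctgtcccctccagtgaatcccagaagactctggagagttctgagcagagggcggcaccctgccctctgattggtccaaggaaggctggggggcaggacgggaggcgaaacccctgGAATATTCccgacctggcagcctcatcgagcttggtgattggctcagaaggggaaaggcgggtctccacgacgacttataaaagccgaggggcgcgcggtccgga
DNAJB1, chr19:14518398-14518647, minus strand: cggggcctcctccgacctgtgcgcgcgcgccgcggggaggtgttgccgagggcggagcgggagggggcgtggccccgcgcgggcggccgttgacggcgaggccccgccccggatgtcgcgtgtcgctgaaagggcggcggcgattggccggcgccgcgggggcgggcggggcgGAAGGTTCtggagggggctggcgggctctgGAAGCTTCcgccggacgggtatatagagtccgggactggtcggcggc
HSP90AA1, chr14:102087045-102087294, minus strand: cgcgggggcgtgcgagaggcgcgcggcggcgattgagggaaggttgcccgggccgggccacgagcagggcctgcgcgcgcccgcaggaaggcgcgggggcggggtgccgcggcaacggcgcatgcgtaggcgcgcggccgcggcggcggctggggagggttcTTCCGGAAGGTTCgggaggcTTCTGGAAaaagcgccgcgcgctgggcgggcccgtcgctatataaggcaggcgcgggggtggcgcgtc
HSPA8, chr11:123062137-123062386, minus strand: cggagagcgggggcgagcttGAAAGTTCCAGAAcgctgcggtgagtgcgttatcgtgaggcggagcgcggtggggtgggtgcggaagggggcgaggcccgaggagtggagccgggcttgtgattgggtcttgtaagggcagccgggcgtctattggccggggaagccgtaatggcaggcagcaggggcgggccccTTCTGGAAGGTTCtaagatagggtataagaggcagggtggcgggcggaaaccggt
HSPD1, chr2:197499841-197500090, minus strand: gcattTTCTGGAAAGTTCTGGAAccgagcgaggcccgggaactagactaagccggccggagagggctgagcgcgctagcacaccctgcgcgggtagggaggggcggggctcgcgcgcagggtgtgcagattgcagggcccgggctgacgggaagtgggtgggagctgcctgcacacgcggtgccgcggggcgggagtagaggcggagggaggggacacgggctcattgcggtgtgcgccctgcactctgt
HSPA5, chr9:125241344-125241593, minus strand: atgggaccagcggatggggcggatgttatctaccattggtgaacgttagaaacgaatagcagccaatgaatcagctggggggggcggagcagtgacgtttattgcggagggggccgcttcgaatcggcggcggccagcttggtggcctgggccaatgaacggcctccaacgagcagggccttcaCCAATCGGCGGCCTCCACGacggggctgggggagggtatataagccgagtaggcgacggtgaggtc

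A heat shock element of 2 units was found in 7 of the 14 member windows, 1 for each of HSPA1A, HSPA1B, DNAJB1, HSPB1, HSP90AA1, HSPA8 and HSPD1, against 11.6% of all 35116 promoter windows of this length. An element of 3 alternating units (TTCNNGAANNTTC or GAANNTTCNNGAA), which contains the shorter one, was found in 3 of the 14 windows, those of HSP90AA1, HSPA8 and HSPD1, against 0.441% of all windows. HSPA8 had 2 such elements, which began 230 and 55 bases before the start. The HSPA1A and HSPA1B windows were identical at 235 of 249 aligned bases, and their 2-unit element began 106 and 105 bases before the start. The ER stress element was found in 1 of the 14 windows, that of HSPA5, 66 bases before its start, and in 0.0740% of all windows. A CCAAT box, which the ER stress element contains, was found in 8 of the 14 windows, of 6 members, and in 32.0% of all windows. The windows of HSPH1 and HSPE1 held none of these elements, and the HSPE1 start lay 105 and 539 bases from the 2 RefSeq starts of HSPD1. The HSPD1 window with elements (chr2:197499841-197500090) ends shortly before the GENCODE start of HSPE1 (197500140). The HSPE1 window was set from a RefSeq start at 197500379 and did not cover that stretch. These elements therefore cannot be assigned to HSPD1 alone. DNAJB1, HSP90AA1 and HSPD1 have several starts in RefSeq, and only the window with an element is shown.

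The main change in these genes was a fall between days 9 and 12. Together the 10 genes took 0.632% to 0.723% of all UMIs on days 6 and 9 (early), and 0.328% to 0.352% on days 12 and 15 (late). The cytosolic genes HSP90AA1 and HSPA8 and the mitochondrial genes HSPD1 and HSPE1 fell by 1.96-fold to 2.42-fold, HSPB1 by 1.61-fold and HSPH1 by 1.51-fold, while the inducible HSP70 genes HSPA1A and HSPA1B, DNAJB1 and the ER gene HSPA5 did not pass the test. This comparison set 4 early against 4 late libraries with the line as a covariate (edgeR, Benjamini-Hochberg adjusted p under 0.05 over all genes). Of the 10 members, 6 were lower late and 0 higher, against 57.7% of genes called in either direction, where 28.3% of the 16993 genes tested were lower and 29.4% higher (4807 and 5001 genes). With upper-quartile scaling, which moved the median of all genes up by 0.17, these were 3708 and 6413 genes, HSPH1 did not pass and HSPA1A passed as higher. The median log2 fold change was -0.64 over the members and 0.04 over all genes. For 5 members, HSP90AA1, HSPA8, HSPD1, HSPE1 and HSPB1, the highest late library was below the lowest early one, a pattern seen in 32.7% of the 8717 genes with a mean of at least 8 CPM. No member showed the reverse pattern, seen in 26.5% of these genes. Each day of a line was 1 library, so day and library cannot be told apart.

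**Figure D1:**
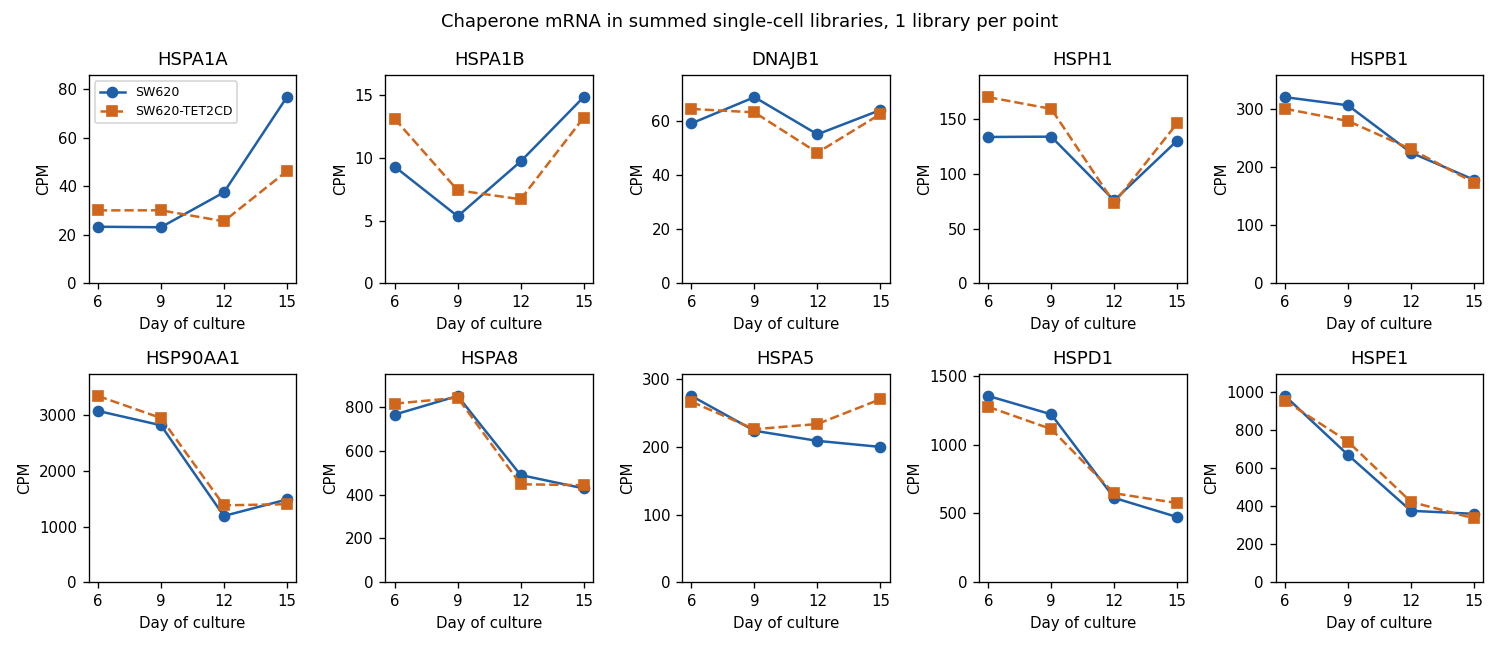
CPM of each of the 10 chaperone genes (y axes, starting at 0) on days 6, 9, 12 and 15 of culture (x axes), 1 point per single-cell library, with circles for SW620 and squares for SW620-TET2CD. HSP90AA1, HSPA8, HSPD1 and HSPE1 dropped between days 9 and 12 in both lines, while HSPA1A reached its highest level, 76.7 CPM, in SW620 on day 15.

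HSP90AA1, the inducible cytosolic HSP90, was at 3075 CPM on day 6 and 2817 CPM on day 9 in SW620, with 3344 and 2948 CPM in the SW620-TET2CD libraries. On days 12 and 15 it was at 1190 and 1485 CPM in SW620 and 1381 and 1401 CPM in the other line. The 4 late libraries lay far below the 4 early ones, and the fall was 1.27 ± 0.14 (SE) on the log2 scale (adjusted p = 5.93e-05). HSPA8, the constitutive HSP70, was at 765 and 849.9 CPM in SW620 and at 815 and 842 CPM in SW620-TET2CD on days 6 and 9. Its late values were 489 and 428 CPM in SW620, with 447 and 443 CPM for SW620-TET2CD. The groups did not overlap, with a log2 fold change of -0.97 ± 0.11 (SE, adjusted p = 6.61e-05).

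The mitochondrial pair moved with them. HSPD1, which forms the folding chamber, was at 1353 and 1219 CPM in SW620 and at 1274 and 1112 CPM in SW620-TET2CD on days 6 and 9, and at 613 and 474 CPM in SW620 and 646 and 575 CPM in SW620-TET2CD on days 12 and 15. Its log2 fold change was -1.22 ± 0.13 (SE, adjusted p = 4.37e-05). HSPE1, its lid, went from 979 and 669 CPM in SW620 and 954 and 739 CPM in SW620-TET2CD to 376 and 359.5 CPM and to 423 and 336 CPM, a log2 fold change of -1.27 ± 0.17 (SE, adjusted p = 0.000134). In both genes every late library was lower than every early one.

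HSPB1, the small heat shock protein HSP27, had a smaller estimate of its fall. It was at 321 and 307 CPM in SW620 and at 301 and 279.9 CPM in SW620-TET2CD on days 6 and 9, and at 225 and 179 CPM and at 231 and 174 CPM on days 12 and 15. The libraries of both lines stepped down from day to day without overlap between early and late, and the log2 fold change was -0.69 ± 0.13 (SE, adjusted p = 0.00135). HSPH1, the exchange factor, had a different course. It was at 133 and 134 CPM in SW620 and at 169.7 and 159 CPM in SW620-TET2CD on days 6 and 9, dropped to 75.6 and 73.4 CPM on day 12, and was back at 130.0 and 146 CPM on day 15. Early and late libraries overlapped, and the call (log2 fold change -0.59 ± 0.23 SE, adjusted p = 0.0452) was lost without either day 6, either day 9 or either day 12 library, with adjusted p from 0.0625 to 0.108, and with other settings given in the closing section.

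HSPA1A and HSPA1B, the inducible HSP70 copies, were not called in either direction. HSPA1A was at 23.4 and 23.2 CPM in SW620 and at 30.1 and 30.1 CPM in SW620-TET2CD on days 6 and 9. On days 12 and 15 SW620 held 37.5 and 76.7 CPM, and SW620-TET2CD 25.6 and 46.2 CPM. The SW620-TET2CD library of day 12 lay within the early range and the other late libraries above it, and the log2 fold change of 0.67 ± 0.30 (SE) missed the threshold (adjusted p = 0.0803). Without that library the adjusted p was 0.00978, with a log2 fold change of 0.93. HSPA1B was at 9.29 and 5.35 CPM in SW620 and 13.1 and 7.41 CPM in SW620-TET2CD on days 6 and 9, and at 9.71 and 14.8 CPM and 6.70 and 13.2 CPM on days 12 and 15. Its day 12 libraries lay within the early range and its day 15 libraries above it (log2 fold change 0.23 ± 0.31 SE, adjusted p = 0.543). With both copies summed the log2 fold change was 0.58 (adjusted p = 0.119).

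DNAJB1 and HSPA5 were the steadiest members, with a highest library only 1.42 and 1.38 times the lowest. DNAJB1, the HSP40 partner, ranged over 59.2 to 68.9 CPM in the early and 48.4 to 64.1 CPM in the late libraries (log2 fold change -0.26 ± 0.13 SE, adjusted p = 0.0982). Without the SW620 library of day 15 its fall passed the threshold (adjusted p = 0.0235). HSPA5, the ER HSP70, ranged over 224 to 275 CPM early and 199.8 to 270.2 CPM late (log2 fold change -0.24 ± 0.12 SE, adjusted p = 0.114). On day 15 it stood at 270.2 CPM in SW620-TET2CD and 199.8 CPM in SW620, the largest gap between the lines on any day for this gene.

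The steps between successive days showed when the genes moved. From day 6 to day 9 no member passed the test, against 0.887% of all genes. In edgeR 2 members, HSPA1B and HSPE1, had an unadjusted p under 0.05, as did 2798 of 17478 genes. DESeq2 called 1 member, HSPA1B, and 371 of 13881 genes. Over this step HSPA1B had a log2 fold change of -0.84 ± 0.23 (SE, adjusted p = 0.12 in edgeR) and HSPE1 of -0.48 ± 0.18 (SE, adjusted p = 0.224). From day 9 to day 12, 7 of 10 members fell, against 21.9% of all genes, and none rose, against 20.2% (42% in either direction). HSP90AA1 fell by 1.29 ± 0.20 (SE) on the log2 scale, HSPH1 by 1.09 ± 0.16, HSPD1 by 1.01 ± 0.17, HSPA8 by 0.98 ± 0.17, HSPE1 by 0.94 ± 0.18, HSPB1 by 0.48 ± 0.15 and DNAJB1 by 0.47 ± 0.14 (adjusted p from 0.000283 to 0.0277). With upper-quartile scaling the falls of HSPB1 and DNAJB1 did not pass. From day 12 to day 15, 3 members rose, against 6.56% of all genes, and none fell, against 6.4% (13% in either direction). These were HSPA1A (2.02-fold, adjusted p = 0.0343), HSPA1B (1.75-fold, adjusted p = 0.0435) and HSPH1 (1.89-fold, adjusted p = 0.00574), while HSP90AA1, HSPA8, HSPD1, HSPE1 and HSPB1 did not pass this test. HSPB1 had a log2 fold change of -0.35 ± 0.15 (SE, adjusted p = 0.159) over this last step.

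**Figure D2:**
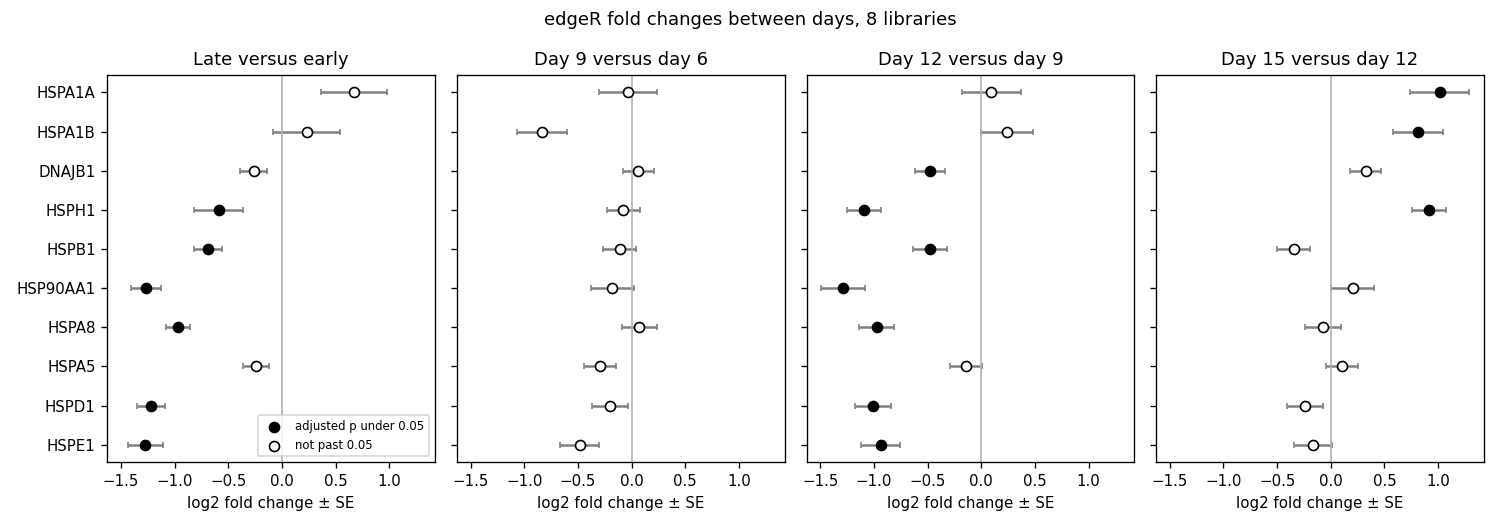
Log2 fold change of each chaperone gene (x axes, with the standard error as bars) between late and early days and for the 3 day steps, from edgeR over the 8 single-cell libraries, with filled points for adjusted p under 0.05. Among the day steps, the falls past the threshold sit in that from day 9 to day 12, with HSP90AA1 at -1.29. The rises of HSPA1A, HSPA1B and HSPH1 past the threshold sit in the step from day 12 to day 15. HSPE1 at -0.48 from day 6 to day 9 and HSPB1 at -0.35 from day 12 to day 15 did not pass.

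Cell division, hypoxia and immediate early genes moved over the same days. The summed level of 18 mitotic genes such as TOP2A and PLK1 was 2041 to 2452 CPM in the early and 278 to 598 CPM in the late libraries. The summed level of 14 hypoxia genes such as CA9 and NDRG1 was 84.9 to 201 CPM early and 864 to 1115 CPM late. The 10 immediate early genes, which answer cell handling as well as growth signals, summed to 1438 to 2132 CPM early and 2324 to 3779 CPM late. Their part in the change of the chaperones was not tested in the comparison of days.

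Most genes of the HSP90 machinery, the chaperonin TRiC and the mitochondrial list were lower late as well. These counts are to be read against 28.3% of all genes lower and 29.4% higher. Of the 10 genes of the cytosolic HSP90 machinery, all 10 were lower late, with CHORDC1 at a log2 fold change of -1.05 and the kinase loader CDC37 at -1.04, and the median was -0.74 against 0.04 over all genes. Of the 14 subunits of the chaperonin TRiC and prefoldin, which fold actin and tubulin, 11 were lower and 0 higher (CCT5 -1.40, CCT7 -1.22, median -0.70). Of the 12 mitochondrial chaperones and proteases, 9 were lower and 0 higher, led by the mitochondrial HSP70 HSPA9 (-1.11) and the protease LONP1 (-1.09), with a median of -0.59. Of the 18 cytosolic HSP70 and HSP40 proteins and co-chaperones, 17 were tested, of which 8 were lower and 1 higher, with the exchange factors HSPBP1 at -1.65 and BAG2 at -1.25 and the J protein DNAJB2 at 0.89, and the median was -0.25.

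The ER list held genes of both directions. Of 24 ER chaperones and genes of the unfolded protein response, 11 were lower and 8 higher late (median -0.16), against 28.3% of all genes lower and 29.4% higher, so that the share of higher genes lay near that of all genes. The lower genes included the folding factors CRELD2 (-1.80) and CALR (-1.64), and the higher ones the ER J protein DNAJB9 (1.79) and the stress sensor ERN1 (1.54). Of 4 genes for heat shock factors or for the factor-binding protein HSBP1, HSF1 (-0.62) and HSBP1 (-0.38) were lower and HSF4 (1.30) was higher. Of 7 small heat shock protein genes 1 was tested, HSPB11, and it was lower (-0.62). Of the 10 immediate early genes, 7 were higher and 0 lower, against 29.4% and 28.3% of all genes, with ZFP36 at 1.75 and JUNB at 1.05 and a median of 0.69.

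The catalytic domain of TET2 left these genes without a called difference in the single-cell libraries. With the day as a covariate, 0 of 10 members passed the test in SW620-TET2CD against SW620, where 4.32% of 17478 genes did (2.48% higher and 1.84% lower), and no member had an unadjusted p under 0.05 in edgeR, nor did DESeq2 call any. The log2 fold changes ran from -0.24 ± 0.20 (SE) for HSPA1A to 0.07 ± 0.11 for HSPH1. Across the lists of related genes, 1 gene passed, the small heat shock protein CRYAB (log2 fold change 1.96, adjusted p = 0.0475). CRYAB did not pass the filter on low counts in the comparison of late and early or in bulk, so this call rests on a gene near that filter. A p above the threshold does not show that the lines had equal levels, and the standard errors of the members, 0.10 to 0.20, bound what these 8 libraries could show.

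HSPA1A and HSPA1B changed places between the lines over time. On days 6 and 9 HSPA1A was higher in SW620-TET2CD by 0.37 and 0.38 on the log2 scale, and on days 12 and 15 lower, with log2 ratios of -0.55 and -0.73. HSPA1B followed with 0.50 and 0.47 on the early days and -0.54 and -0.17 on the late ones. Within SW620 the rise of HSPA1A from early to late passed the test (log2 fold change 1.26 ± 0.35 SE, adjusted p = 0.0212), and within SW620-TET2CD its log2 fold change was 0.06 ± 0.35 (SE, adjusted p = 0.906). The test of the difference itself did not pass, at -1.20 ± 0.50 (SE), unadjusted p = 0.0366 and adjusted p = 1.0. No gene of the 17478 passed that test, in edgeR or DESeq2, and 141 had an unadjusted p under 0.05.

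Bulk RNA gave a level per transcript length, so that the members could be ranked, although fewer cells with a transcript and less of it per cell cannot be told apart in bulk. In TPM, the transcripts of a gene in 1e6 transcripts, over the 6 libraries the order by median was HSPA8 (1557), HSPE1 (799.5), HSP90AA1 (659), HSPD1 (555), HSPA5 (183), HSPB1 (135), HSPH1 (118), DNAJB1 (112), HSPA1A (75.8) and HSPA1B (61.4). The ranges of neighbors in this order overlapped except between HSPA8 and HSPE1 and between HSPD1 and HSPA5. Members were also ranked among all genes detected at any TPM in the same library. No member lay below a percentile of 86.89, the value of HSPA1B in SW620 on day 6.

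SW480 held more chaperone RNA than SW620 on day 6 for 9 of the 10 members, where 49.8% of all genes over 1 TPM were higher in SW620. These were 1 library against 1, with no replicate check. HSPB1 stood out at 652 TPM in SW480 and 152 TPM in SW620, a log2 ratio of -2.09 on the log2(TPM + 1) scale. HSPA1B was at 102 and 44.9 TPM, HSPA1A at 101 and 56.0 TPM and HSPH1 at 243 and 136 TPM. HSPA5 was the member with the higher value in SW620, at 189 against 177 TPM.

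**Figure D3:**
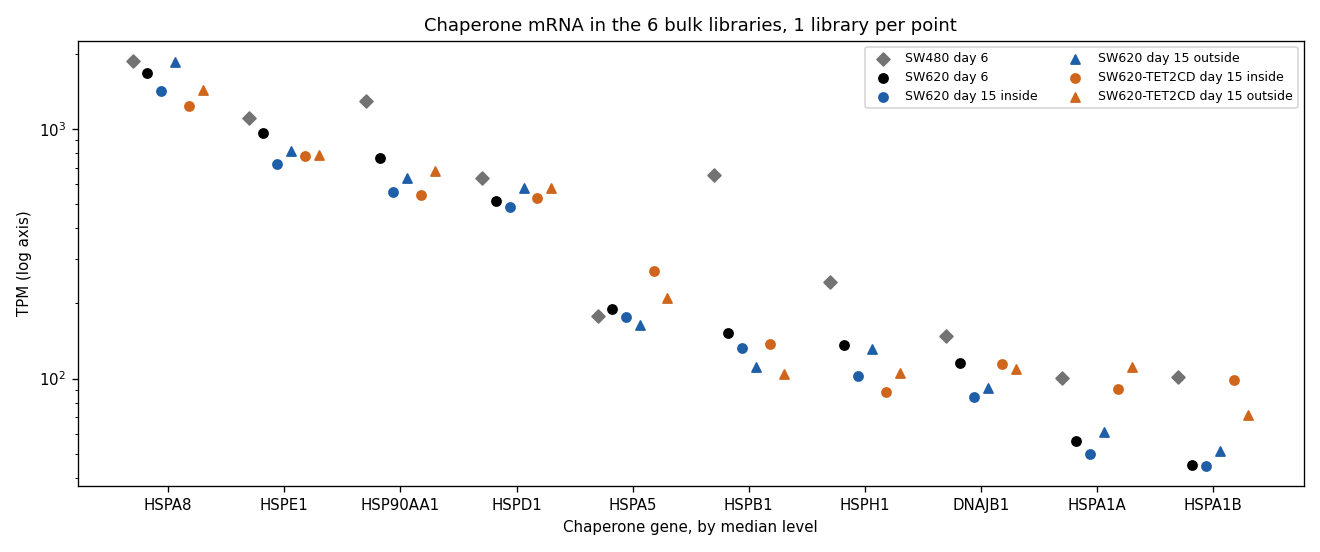
TPM (y axis, log scale) of the 10 chaperone genes (x axis, ordered by median) in the 6 bulk libraries, 1 point per library, with marker and color giving line, day and place. HSPB1 in SW480, at 652 TPM, stands above its other libraries, and HSPA1A and HSPA1B are higher in both SW620-TET2CD libraries of day 15 than in both SW620 libraries of that day.

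For the abundant members the ratio of day 15 to day 6 lay closer to 1 in bulk RNA than in the single-cell sums. In the single-cell sums of SW620 the log2 ratio of day 15 to day 6 was -1.51 for HSPD1, -1.45 for HSPE1, -1.05 for HSP90AA1 and -0.84 for HSPA8. In bulk SW620 the same ratio, with 1 TPM added to both values, was -0.08 for HSPD1, -0.40 for HSPE1, -0.45 for HSP90AA1 and -0.24 for HSPA8 in the cells inside colonies. In the cells outside it was 0.17, -0.24, -0.26 and 0.15. HSPA1A was higher on day 15 in single cells and also lay closer to 1 in bulk, with a log2 ratio of 1.72 in single cells and of -0.16 inside and 0.13 outside in bulk. The bulk values came from whole-transcript reads and cells split by place, and each side was 1 library, so these ratios are given side by side without a test. Over 8716 genes the log2 ratios of the single-cell and bulk data had a Pearson r across genes of 0.58 for inside and 0.56 for outside cells, with a standard deviation of 0.95 in single cells and of 0.54 and 0.50 in bulk. Genes are not independent replicates.

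**Figure D4:**
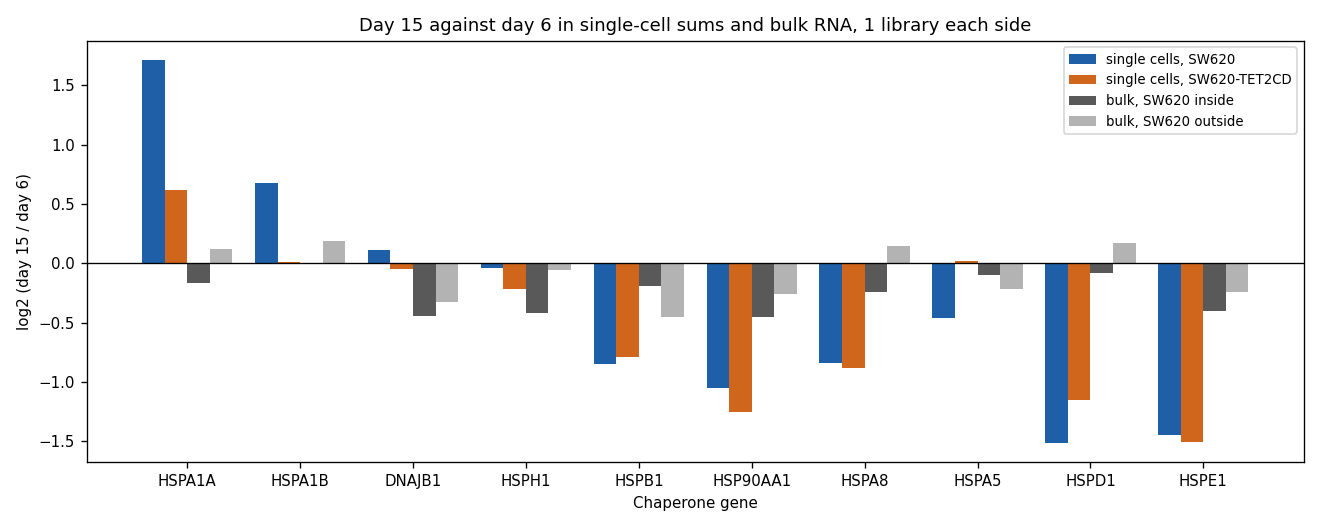
Log2 ratio of day 15 to day 6 (y axis) of each chaperone gene (x axis) in the single-cell sums of SW620 and SW620-TET2CD and in bulk RNA of SW620 cells inside and outside colonies, 1 library on each side of every ratio. HSPD1 is at -1.51 in single-cell SW620 and at -0.08 and 0.17 in bulk.

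Place in the colony made no called difference. In a fit over the 4 bulk libraries of day 15 with the line as a covariate, 0 of 10 members and 0 of 17722 genes (0%) passed between outside and inside cells in edgeR, with 2 members and 1068 genes at an unadjusted p under 0.05, and DESeq2 called 24 genes and no member. HSPA1A was at 49.9 TPM inside and 61.2 outside in SW620, and at 90.5 inside and 111 outside in SW620-TET2CD. HSPB1 was at 133 inside and 111 outside in SW620, and at 138 inside and 104 outside in SW620-TET2CD. Both genes moved the same way in both lines, by log2 fold changes of 0.27 ± 0.09 (SE) and -0.35 ± 0.12, each with an adjusted p of 0.772. HSPH1, HSP90AA1, HSPA8, HSPD1 and HSPE1 were also higher outside in both lines, and HSPA5 lower, without passing the test. In SW620, 8 of the 10 members were higher outside, against 45.2% of all genes over 1 TPM. In SW620-TET2CD it was 6 of 10 members, against 58.8% of all genes.

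Between the lines, HSPA1A and HSPA1B had the largest log2 fold changes of the members in bulk on day 15. HSPA1A was higher in SW620-TET2CD in both places, with a log2 fold change of 0.80 ± 0.09 (SE), and its adjusted p of 0.0601 missed the threshold. HSPA1B was at 44.6 and 51.1 TPM inside and outside in SW620 and at 98.3 and 71.7 TPM in SW620-TET2CD (log2 fold change 0.76 ± 0.20 SE, adjusted p = 0.149). For HSPA1A the line with the higher bulk value on day 15 was the one with the lower value in the single-cell sums of that day. HSPA5 was at 177 and 163 TPM in SW620 and at 270.3 and 209.95 TPM in SW620-TET2CD (log2 fold change 0.43 ± 0.13 SE, adjusted p = 0.188).

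In all, 0 of 10 members were called between the lines in bulk, against 0.412% of genes (0.288% higher), with 4 at an unadjusted p under 0.05, as were 3536 of 17722 genes, and 2, HSPA1A and HSPA1B, called by DESeq2, as were 704 of 16255 genes. A further gene was singled out after its values were seen. HSPA6, an HSP70 that is transcribed mainly under strong stress, was listed at 0.02 and 0.17 TPM inside and outside in SW620 and at 6.51 and 1.86 TPM in SW620-TET2CD, while no single-cell library held more than 2 UMIs of it. HSPA6 did not pass the edgeR test between the lines in bulk (log2 fold change 5.19 ± 0.94 SE, adjusted p = 0.0921). Of the related lists, 1 gene passed between the lines in bulk, the immediate early gene FOSB, at 39.0 and 36.0 TPM in SW620 and 138 and 142 TPM in SW620-TET2CD (adjusted p = 0.0211). Whether immediate early genes and the HSP70 copies moved for a common reason was not tested.

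Barcodes that the filters removed, and classes of cells within a library, were compared next, each as a sum per library against the kept or other cells of the same library (edgeR with the library as a block). Barcodes above the mitochondrial limit, 377 to 2877 per library, held less of 7 members, against 21.4% of all genes lower and 32.8% called in either direction. HSPE1 had a median over libraries of 426 CPM there and 546 CPM in kept cells (log2 fold change -0.62 ± 0.13 SE, adjusted p = 0.00242), and HSP90AA1 of 1581 and 2151 CPM (-0.61 ± 0.13 SE, adjusted p = 0.00273). HSPA1A, HSPA1B and HSPA5 did not pass, with log2 fold changes of -0.10, -0.13 and -0.12. Their median CPM, which has no TMM scaling, was slightly higher in the high-MT barcodes, so their direction is unsure. It was 31.5 against 30.1 CPM for HSPA1A, 10.9 against 9.50 CPM for HSPA1B and 232 against 229.8 CPM for HSPA5. With upper-quartile scaling 3327 genes were higher and 2355 lower, against 2028 and 3808. The call of HSPB1 was lost with this scaling (adjusted p = 0.0700), without SW620 day 6 (0.0629) and without SW620 day 15 (0.0667). In CPM, the gap of HSPA8 was wider in each early than in each late library. In SW620-TET2CD it was at 544 against 815 CPM on day 6 and at 451 against 447 CPM on day 12. HSPE1 in SW620 was at 539 against 979 CPM on day 6, 347 against 376 CPM on day 12 and 251 against 359.5 CPM on day 15. Whether early and late libraries differ here was not tested. High-MT barcodes had a median depth of 1575 to 11022 UMIs, and kept cells of 6640 to 13479 UMIs.

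Barcodes above the upper limits of genes or UMIs, which may hold large cells or several cells, held more of HSPA8, HSPH1, HSP90AA1 and HSPE1, 4 members against 10.8% of all genes higher, and less of HSPA5, against 10.8% lower (21.6% in either direction). HSPA8 had a median of 817 CPM there and 627 CPM in kept cells (log2 fold change 0.39 ± 0.05 SE, adjusted p = 0.00042). HSPA5 had 212 and 229.8 CPM (-0.23 ± 0.05 SE, adjusted p = 0.00593). The calls of HSPA8 and HSPA5 held under each alternative tried. Those of HSPH1, HSP90AA1 and HSPE1 were lost with no filter and without either library of day 12 or SW620-TET2CD day 15 (adjusted p from 0.0560 to 0.171), that of HSPH1 also without SW620 day 6 (0.0522) or SW620-TET2CD day 9 (0.0514), and those of HSP90AA1 and HSPE1 without SW620 day 15 (0.0550 and 0.0505). DESeq2 called 9 members here, among 4114 of 15267 genes, and 2 were called without either library of day 12. Of all genes, 2260 of 18050 were called without SW620 day 12, 2017 of 18062 without SW620-TET2CD day 12 and 2295 of 17784 without SW620-TET2CD day 15, against 3918 of 18171 with all libraries. The balance of 1963 genes higher and 1955 lower went to 1653 and 2737 with upper-quartile scaling and to 1077 and 2376 with no filter.

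Within the kept cells, the 10% with the highest share of mitotic UMIs were set against the others. HSPA8, HSPA1B and DNAJB1 were higher in them, 3 members against 11.1% of all genes, and HSPA5 was lower, against 11.5% (22.6% in either direction). The background moved as well, from 1827 genes higher to 894 without SW620 day 15, to 860 of 26919 with no filter and to 1188 (2910 lower, against 1894) with upper-quartile scaling. HSPA8 had a median of 829.5 CPM in these cells and 605 CPM in the others (log2 fold change 0.43 ± 0.04 SE, adjusted p = 6.79e-05), the largest of these differences. The call of HSPA1B was lost with upper-quartile scaling, with no filter and without any 1 of the 4 libraries of days 6 and 9 (adjusted p from 0.0701 to 0.0807), and that of DNAJB1 without the SW620 library of day 9 (0.0504) and in the highest 20% of cells (0.0510). Without the SW620 library of day 9, 2 members were called. The gaps of HSPA1B and DNAJB1 were wider in the early than in the late libraries. In SW620, DNAJB1 was at 81.8 against 56.5 CPM on day 6 and at 54.2 against 55.3 CPM on day 12. HSPA1B was at 13.3 against 8.82 CPM and at 10.3 against 9.64 CPM, and in SW620-TET2CD on day 12 it was lower, at 6.34 against 6.75 CPM. HSPA1A, the near copy of HSPA1B, and HSP90AA1 missed the threshold in edgeR, at log2 fold changes of 0.37 and 0.25 (adjusted p = 0.0810 and 0.0834). HSP90AA1 was lower in the mitotic cells of both lines on day 6 and higher in every later library. HSPD1, HSPE1, HSPH1 and HSPB1 did not pass either. For HSPD1 and HSPE1 the libraries went both ways, lower in the mitotic cells in all 4 early and higher in all 4 late libraries. HSPD1 was at 1155 against 1376 CPM in SW620 on day 6 and at 825 against 588 CPM on day 12, and HSPE1 at 869 against 992 CPM and at 522 against 358 CPM. Whether this difference between early and late libraries exceeds their spread was not tested. The class was set within each library, and its limit was 0.449% to 0.560% of UMIs early and 0.0266% to 0.157% late. The mitotic class of SW620 on day 12 had a median share of 0.0960%, below the 0.0977% to 0.151% of the other cells of the early libraries, so the early and late classes are not like for like. These cells are a range of a score and not a type, with 62 to 510 cells per library within 10% of the limit. Their median depth of 8311 to 14858 UMIs was above the 6488 to 13358 UMIs of the others.

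The 10% of cells with the highest share of hypoxia UMIs showed another split. HSPD1, HSPE1, HSPB1 and HSPA8 were lower in them, 4 members against 10.2% of all genes, and HSPA5 was higher, against 7.39% of all genes (17.6% in either direction). Genes called higher went from 1242 to 823 without SW620 day 9, 524 without SW620 day 12, 612 without SW620-TET2CD day 12, 620 without SW620 day 15 and 678 without SW620-TET2CD day 15, and those called lower from 1719 to 790 and 886 without the SW620-TET2CD libraries of days 12 and 15. With no filter 663 were higher and 3930 lower. The class was set within each library, and its limit was 0.0229% to 0.0495% of UMIs early and 0.210% to 0.297% late, so that the day 6 class, with a median share of 0.0290% and 0.0296%, held less hypoxia RNA than the other cells of days 12 and 15 (medians of 0.0589% to 0.0678%). On day 6 the classes lay close, with HSPB1 (335 against 319 CPM in SW620 and 312 against 299.9 CPM in SW620-TET2CD) and HSPA8 (791 against 762 CPM and 836 against 813 CPM) higher in the hypoxia cells of both lines, and HSPD1 at 1312 against 1357 CPM and 1279.7 against 1273 CPM. From day 9 on, HSPD1, HSPE1, HSPB1 and HSPA8 were lower in these cells in each of the 6 libraries. HSPD1 had a median of 662 CPM in these cells and 899 CPM in the others (log2 fold change -0.53 ± 0.10 SE, adjusted p = 0.00698). HSPA5 had 297 and 223 CPM (0.36 ± 0.12 SE, adjusted p = 0.0497), and 8 of the 24 ER genes were higher in the same cells with 0 lower. The call of HSPA5 was lost with no filter (adjusted p = 0.176), in the highest 20% of cells (0.0694), and without SW620 day 9 (0.0935), SW620 day 12 (0.151), SW620-TET2CD day 12 (0.0831), SW620 day 15 (0.157) or SW620-TET2CD day 15 (0.0832). Its largest gap was in SW620-TET2CD on day 12, at 518 against 208 CPM, and without that library the log2 fold change was 0.24. In SW620-TET2CD on day 9 it was lower in the hypoxia cells, at 219 against 227 CPM. HSP90AA1, which fell most with HSPE1 between early and late, did not pass here (-0.11 ± 0.07 SE, adjusted p = 0.285). Without either SW620-TET2CD library of day 12 or day 15, 3 members were called, with HSPB1 lost beside HSPA5. The median depth of these cells was 5299.5 to 12344 UMIs, below the 6756.5 to 13603 UMIs of the others, and 177 to 364 cells per library lay within 10% of the limit.

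**Figure D5:**
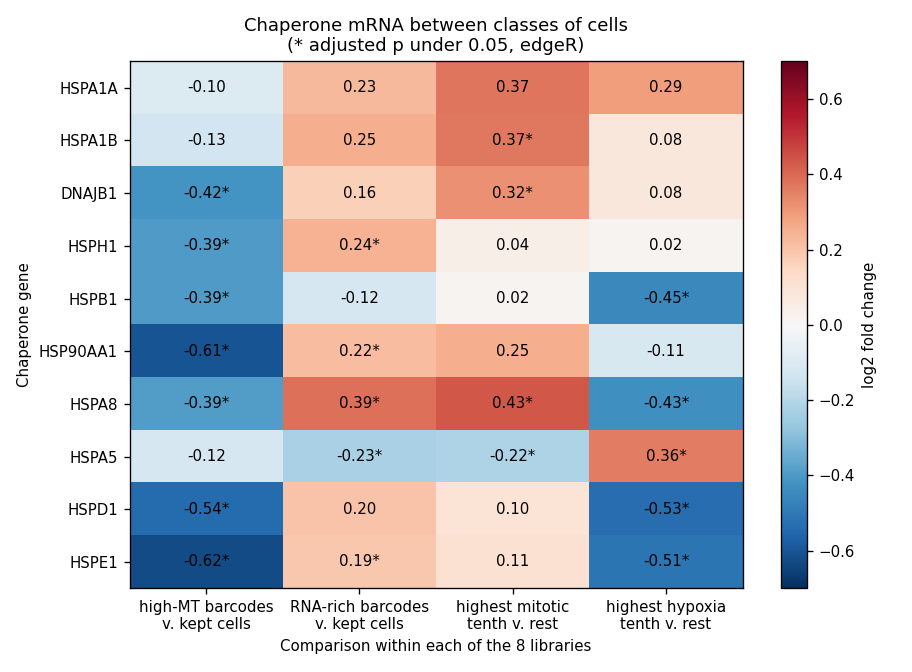
Log2 fold change (color and number) of each chaperone gene (rows) in 4 classes of barcodes against the kept or other cells of the same 8 libraries (columns), with a star for adjusted p under 0.05 in edgeR. HSPA5 is at 0.36 in the hypoxia class and at -0.22 and -0.23 in the mitotic and RNA-rich classes, and HSPA8 is at -0.43, 0.43 and 0.39.

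At the level of cells, each cell was thinned to 2000 UMIs so that depth was equal, which left out 18 to 89 cells per library. The shares of SW620 cells with a UMI of HSPA1A were then, for days 6, 9, 12 and 15, 4.18% (95% exact interval 3.67 to 4.74), 3.80% (3.38 to 4.26), 7.11% (6.33 to 7.96) and 14.1% (13.3 to 14.9). The SW620-TET2CD shares were 5.26% (4.78 to 5.76), 5.58% (5.03 to 6.17), 5.06% (4.39 to 5.79) and 8.75% (8.04 to 9.50). The share on day 15 was the highest in both lines and higher in SW620. Unthinned, the 8 shares ran from 14.0% to 38.3%. These intervals cover counting error only, and the background of free RNA was not measured, since no cell type known to lack the genes was identified in these libraries, so the shares of low members such as HSPA1A and HSPA1B hold an unknown part of background.

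The other members differed in how widely they were detected. HSP90AA1 was seen in 98.0% to 99.0% of early and 86.2% to 91.3% of late cells after thinning, and HSPD1 in 84.8% to 89.5% and 54.6% to 64.8%. HSPA1B was seen in 1.14% to 2.38% of early and 1.39% to 2.75% of late cells. The spread of the counts between cells differed among members. The ratio of variance to mean (Fano factor), which is 1 for Poisson counts and tends to lie near 1 where counts are few, was 1.00 to 1.07 for DNAJB1 and 1.00 to 1.22 for HSPA1B, both with few counts. It was 1.13 to 1.57 for HSPA1A, 1.20 to 1.51 for HSPA8, 1.22 to 1.37 for HSPD1 and 1.65 to 2.14 for HSP90AA1. HSPA5 reached 1.76 in SW620-TET2CD on day 12, where the 1% of cells with most HSPA5 held 10.5% of its summed per-cell CPM, the highest value among its libraries.

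Some pairs of members were detected in the same cells more often than others. Among thinned cells with a UMI of HSPA1A, a median over libraries of 2.86% also had a UMI of HSPA1B, against 1.74% of the cells without, and the share was higher in 8 of 8 libraries. Cells with DNAJB1 had HSPA1B in 2.44% against 1.75%, also in 8 of 8 libraries, and HSPA1A in 6.73% against 5.20%, in 7 of 8. Cells with HSP90AA1 had HSPH1 in 22.5% against 17.1%, in 8 of 8. Other pairs had a lower median share together than apart, with HSPA1A in 5.38% of cells with HSP90AA1 and 5.93% of those without (higher in 4 of 8), HSPA1B in 1.77% against 2.32% (5 of 8), and HSPA1B in 1.58% of cells with HSPH1 against 1.86% (3 of 8). HSPE1 was more often seen in cells with HSPD1 (63.9% against 53.5%), HSP90AA1 (61.7% against 48.4%), HSPA8 (62.5% against 57.9%) and HSPB1 (63.7% against 59.1%), in 8 of 8 libraries each. HSPD1 and HSPA1A did not go together, with HSPA1A in 5.25% of cells with HSPD1 and 6.49% of cells without, and a higher share in 1 of 8 libraries. At these low counts the differences are a description. The near-identical sequences of HSPA1A and HSPA1B leave the assignment of their reads uncertain, and the effect of this on their joint detection was not tested.

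The members were also compared by their course over the 8 libraries. As a description over 8 libraries that share days, the Pearson r of log2(CPM + 1) was 0.96 between HSPD1 and HSPE1, 0.96 between HSPD1 and HSPA8, 0.95 between HSP90AA1 and HSPA8, and 0.76 between HSPA1A and HSPA1B. It was 0.85 between DNAJB1 and HSPH1, and -0.84 between HSPA1A and HSPB1. HSPA5 stood apart from every other member, with r from -0.43 to 0.49. Among 8707 other genes with a mean of at least 8 CPM, the courses most like that of HSPA5 were those of ECD (0.96), SCARB1 (0.96), PRPF8 (0.95), HSP90B1 (0.94) and MAPKAPK5 (0.94). For HSPA1A they were ZFYVE19 (0.98), RAB14 (0.97), S100A6 (0.96), MRPS6 (0.96) and PXN (0.96). For HSPD1 they were SLC5A6, MRPS25, AARSD1, SMARCD2 and SLC16A1 (0.996 each), and for HSPB1 they were C19orf48, TYW3 and KHK (0.996, 0.996 and 0.995), SLC2A4RG and PEX10 (0.993 each).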

How the data were processed

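Single-cell libraries were made with the Chromium 3′ v3.1 chemistry, and per the labels and the study's methods the authors ran Cell Ranger 4.0 on GRCh38 and deposited raw counts of UMIs per gene and barcode. Bulk libraries were made with TruSeq, and the authors ran RSEM with Bowtie and deposited estimated counts and TPM per gene (versions not given in the sources used here). The submitters' processing notes name a mouse build for the bulk data, although the deposited gene identifiers are human.

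Deposited UMI counts were summed over kept cells. Sums, and estimated counts rounded to whole numbers, were tested with edgeR 4.0.16 (TMM scaling, filterByExpr, quasi-likelihood test, two-sided, Benjamini-Hochberg adjustment over all genes tested, threshold 0.05), and with DESeq2 1.42.0 as an alternative. Standard errors of the edgeR fold changes were derived from the test, as the absolute log2 fold change divided by the square root of the F statistic. The bulk fits of 4 libraries had 1 residual degree of freedom. p-values measure only the spread between libraries, since no label names separate cultures of 1 group. Single-cell precision is set by 48186195 to 74185723 UMIs per library, and a count of 3 is 0.0404 to 0.0623 CPM. The kept total of 48282 cells lies above the number of cells the study states. No doublet caller was run, and a fit without the 8% deepest cells was an alternative. Other alternatives were upper-quartile scaling, no filter on low counts, no block, other limits on cells, a slope per day and each library left out in turn. The scripts were tested on simulated data. Log2 ratios of TPM used a pseudocount of 1.

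All 10 members were named in every comparison, and in each list up to 2 genes with the highest and 2 with the lowest log2 fold change among those past the threshold. The members and lists were chosen with earlier results of these data known.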

Additional observations from a re-analysis of the deposited data

Results flagged for a closer look

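For 3 members the difference between the lines changed sign between early (days 6 and 9) and late (days 12 and 15), with SW620-TET2CD on one side of SW620 on both early days and on the other on both late days. The share of all genes with this pattern is not given here, so the count of members is a description only. The change from early to late in SW620-TET2CD minus that in SW620 was -1.20 on the log2 scale for HSPA1A (unadjusted p = 0.0366), -0.94 for HSPA1B and 0.18 for HSPD1, and edgeR's adjusted p was 1.0 for each.

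In bulk RNA of day 15, 2 members moved in opposite directions between outside and inside cells of the lines. The log2 ratio of outside to inside was 0.19 in SW620 and -0.45 in SW620-TET2CD for HSPA1B, and 0.12 in SW620 and -0.061 in SW620-TET2CD for DNAJB1. Each of these ratios rests on 1 library a side, and the difference between the lines was not tested. The share of all genes that moved in opposite directions is not given here either, so this count is also a description only. Of 20 groups of 4 single-cell libraries, none held a library far from the others, where chance would flag about 1 in 20.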

How the results depend on the processing

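Of 1092 results of single members under the alternatives, 940 kept their direction and their side of the threshold, 44 came to pass it, 49 no longer passed it and 59 changed sign, none of the last past the threshold before or after. The fits kept the line, the day, the place or the library as a block. By replicate number, no paired analysis was possible because each line, day and place had 1 library. The counts of members below come from 1 library a day and line, and the causes of the changes were not tested.

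Between late and early, 5 to 7 members were called with each library left out in turn (8216 to 10356 of all genes), 6 on days 6 and 15 only (9988 of 17057 genes) and 7 on days 9 and 12 only (8302 of 16754), the last 2 alternatives chosen after seeing the data. The fall of HSPH1 between late and early did not pass with upper-quartile scaling, a mitochondrial limit of 20%, without the 8% of cells with most UMIs, as a slope per day or on days 6 and 15 only (adjusted p from 0.0581 to 0.373), while HSPA1A passed as higher with upper-quartile scaling, no filter, a slope per day and days 6 and 15 only. From day 6 to day 9, 1 member was called with DESeq2 and 1 with no filter. In RNA-rich barcodes 5 members were called, 9 with DESeq2, 3 with no filter and 2 to 6 with a library left out (3 without SW620-TET2CD day 15). In the mitotic cells 4 were called, and 2 to 5 with a library left out. In the hypoxia cells 5 were called, and 3 to 6 with a library left out. In high-MT barcodes 7 were called, and 6 to 7 with a library left out. Between the lines in bulk 0 were called, 2 with DESeq2, 1 with upper-quartile scaling, 5 with no filter, and 0 to 6 with a library left out and no block (4 without SW620-TET2CD inside, where 4191 of 18664 genes were called, and 6 without SW620-TET2CD outside, where 2950 of 18215 were, against 73 of 17722), where the lone library is assumed to vary like the others. Between the lines in single cells and between outside and inside in bulk, 0 were called with any library left out.

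Signs turned as follows, on the log2 scale. Between the lines in single cells, HSP90AA1 was at 0.0096 with upper-quartile scaling, 0.00056 with no block, 0.028 with every barcode and 0.026 with no upper limits, HSPA1B at 0.028 with every barcode and 0.017 with no upper limits, and HSPA5 at -0.0032 with every barcode. With upper-quartile scaling HSPA1A was at 0.0098 from day 6 to day 9, HSPA5 at 0.031 from day 9 to day 12, HSPA1A at 0.029 and HSPA5 at 0.013 in high-MT barcodes, and HSPH1 at -0.026 and HSPB1 at -0.045 in mitotic cells. With no filter HSPH1 was at -0.038 and HSPB1 at -0.057 in mitotic cells, and HSPA1B at -0.038, DNAJB1 at -0.049 and HSPH1 at -0.11 in hypoxia cells. DNAJB1 was at -0.0064 between outside and inside with no block.

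With each library left out in turn, HSPA1B ran from -0.042 to 0.52 between late and early. Between the lines in single cells HSPA1A ran from -0.45 to 0.036, HSPA1B from -0.23 to 0.13, HSPA5 from -0.0061 to 0.070, HSP90AA1 from -0.11 to 0.10, HSPE1 from -0.14 to 0.058 and HSPH1 from -0.016 to 0.15. HSPB1 ran from -0.038 to 0.058 and HSPH1 from -0.041 to 0.073 in mitotic cells, and HSPH1 from -0.15 to 0.11, HSPA1B from -0.087 to 0.18 and DNAJB1 from -0.0075 to 0.12 in hypoxia cells. In bulk with no block, between outside and inside, HSPA1A was at -0.12, DNAJB1 at -0.23 and HSPE1 at -0.022 without SW620 inside, HSPA8 at -0.078 and HSPE1 at -0.039 without SW620 outside, HSPA1B at 0.42 and HSPA5 at 0.037 without SW620-TET2CD inside, and HSPA1A at -0.17 and DNAJB1 at -0.057 without SW620-TET2CD outside. Between the lines HSPB1 was at 0.041 without SW620 inside, HSP90AA1 at 0.053, HSPD1 at 0.11 and HSPE1 at 0.10 without SW620 outside, HSP90AA1 at 0.043 without SW620-TET2CD inside, and HSPB1 at 0.17 and HSPE1 at 0.047 without SW620-TET2CD outside.

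Over all genes, 155 were called from day 6 to day 9, 371 with DESeq2 and 978 with no filter. Between the lines in single cells 755 were called, 1489 with no filter, 46 with no block, 440 without SW620 day 9 and 458 without SW620-TET2CD day 9, and in bulk 73, with 704 for DESeq2, 178 for upper-quartile scaling, 2239 with no filter, 8 with no block and 0 without either SW620 library. Between outside and inside 0 were called, 24 with DESeq2 and 472 with no filter, and for the late effect between the lines 0, with 15 for no filter. Upper-quartile scaling moved the median of all genes by 0.18 from day 9 to day 12, where 5027 genes were higher and 2681 lower against 3525 and 3823, and by 0.12 in high-MT barcodes, with 3327 and 2355 against 2028 and 3808. No filter moved it by -0.13 in hypoxia cells, with 663 and 3930 against 1242 and 1719.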
